A study of Mus musculus with 24 samples.

Results

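Baz1b encodes WSTF, the Williams syndrome transcription factor, and it lies on mouse chromosome 5 within the stretch whose human counterpart is lost in Williams syndrome. The mRNA of 10 of its neighbours in this stretch, Gtf2i, Gtf2ird1, Clip2, Rfc2, Eif4h, Limk1, Mlxipl, Tbl2, Bcl7b and Fzd9, was followed in mouse embryonic stem cells (mESCs) that lack WSTF or another accessory subunit of the ISWI chromatin remodelers. The genes were chosen by symbol, joined to the Entrez identifiers of the count table, and not by a rule on their measured values. Earlier results of these data were known when they were chosen. All 10 were among the 15682 genes tested, out of 24594 genes in the table. The 24 RNA-seq libraries come from mESCs of the 129S6/SvEvTac background, with no treatment. Batch A holds 2 WT, 2 Rsf1Δ and 2 WstfΔ libraries, so that Rsf1Δ and WstfΔ share their WT. Batch B holds 2 WT and 2 Tip5Δ libraries, batch C 2 WT and 2 BptfΔ, batch D 3 WT and 3 labelled Cecr2Δ, and batch E 2 WT and 2 Acf1Δ. Each deletion line was made with CRISPR–Cas9 and is 1 clone, and the Acf1Δ clone went through repeated rounds of editing. A difference between a line and WT can therefore not be told apart from a difference between clones, and the p-values measure the spread between replicate libraries only.

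Williams syndrome is a developmental disorder caused by loss of 1 copy of a block of neighbouring genes. In it, a reduced dose of the elastin gene Eln is tied to narrowed arteries, and TFII-I family genes such as Gtf2i and Gtf2ird1 have been linked to the behavioural and facial features. WSTF joins the ATPase SNF2H in the remodeler WICH, which is known for work at replicating chromatin and at ribosomal genes. In the WstfΔ line Baz1b itself was targeted, so its neighbours are the genes at which a local effect of the deletion would be read.

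Library depth ranged from 13.4 to 36.7 M (mega) counts, with a median of 25.02 M, and the WstfΔ libraries were the shallowest at 13.4 and 13.6 M. The 4 libraries of batch C also hold RNA without a poly(A) tail, with Rpph1 at 3288 to 4824 CPM against 0.0876 to 3.39 CPM in the 20 others (CPM, the usual depth-scaled counts, here with TMM scaling). Cecr2 mRNA was not lower in the libraries labelled Cecr2Δ (log2(FC) 0.37, edgeR adjusted p = 0.000154), which are named by their label throughout. The 6 stem cell markers Pou5f1, Sox2, Nanog, Klf4, Esrrb and Zfp42 were present in every library and also differed between groups. They summed to 2527 to 2618 CPM in WT of batch A, 3464 to 3468 in Rsf1Δ, 3763 to 3809 in WstfΔ, 3086 to 3095 in WT of batch B and 3020.0 to 3119 in Tip5Δ. The same sum was 2611 to 2677 CPM in WT of batch C, 3898 in both BptfΔ libraries, 3436 to 3705 in WT of batch D, 3892 to 4117 in Cecr2Δ, 3182 to 3390.3 in WT of batch E and 3762 to 3910.5 in Acf1Δ. The 5 primitive endoderm markers (Gata4, Gata6, Sox17, Pdgfra and Dab2) differed between groups. They summed to 291 to 298 CPM in WT of batch A, 117 to 124 in Rsf1Δ, 117 to 121 in WstfΔ, 293 to 312 in WT of batch B and 64.4 to 70.3 in Tip5Δ. The same sum was 130.0 to 138 CPM in WT of batch C, 8.15 to 9.10 in BptfΔ, 81.9 to 94.2 in WT of batch D, 23.2 to 27.3 in Cecr2Δ, 214 to 222 in WT of batch E and 239 to 273 in Acf1Δ. Summed markers of mesoderm (4 genes), neural ectoderm (3), trophoblast (3) and fibroblasts (4) stayed at or below 9.10, 50.7, 3.32 and 31.7 CPM, and no marker was at 0 in every library. These low sums also differed between lines and their own WT. In WstfΔ, against WT of batch A, mesoderm was at 8.41 to 9.10 against 4.51 to 5.94 CPM, neural ectoderm at 34.8 to 36.05 against 19.99 to 21.9 CPM and trophoblast at 0.512 to 0.578 against 3.31 to 3.32 CPM. Neural ectoderm was at 23.5 to 24.4 CPM in Acf1Δ against 45.5 to 50.7 in its WT, and fibroblasts at 2.54 to 3.11 CPM in BptfΔ against 7.88 to 8.504 in its WT. In bulk RNA, fewer cells of a type and less RNA per cell cannot be told apart, and the part of these markers in the results was not tested.

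On GRCm38 (mm10), 9 of the 10 genes lie before Baz1b and 1 lies after it. The far group holds Gtf2i (gene ID 14886, chr5:134237832-134317678, minus strand), Gtf2ird1 (57080, chr5:134357661-134456867, minus), Clip2 (269713, chr5:134489383-134553767, minus), Rfc2 (19718, chr5:134582690-134598328, plus), Eif4h (22384, chr5:134619872-134639409, minus) and Limk1 (16885, chr5:134656039-134689859, minus). Their nearest ends are between 497 kb (Limk1) and 870 kb (Gtf2i) from Baz1b. The near group holds Mlxipl (58805, chr5:135089890-135139768, plus), Tbl2 (27368, chr5:135149429-135163873, plus) and Bcl7b (12054, chr5:135168372-135181852, plus), at 47.6, 23.4 and 5.47 kb. Baz1b (22385) spans chr5:135187323-135246131 on the plus strand. Fzd9 (14371, chr5:135248938-135251047, minus) lies 2.81 kb beyond the end of Baz1b and is transcribed towards it. No other RefSeq gene overlaps any of the 10.

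The RefSeq promoter table (GRCm38.p6) held 9 of the 10 genes, with 11 promoters. Transcript starts in that table need not be the outer end of the gene. Of the 11 stretches before a start, 6 lie wholly inside the gene span given above, 1 (Gtf2ird1) lies inside it by 151 bases and 4 lie outside it. The 250 bases before the start are shown for the deleted gene and for the 2 neighbours that rose in WstfΔ, Fzd9 and Gtf2ird1. Each runs 5′ to 3′ along the gene's own strand, and capitals mark matches on either strand to any of 4 short motifs. The E-box was searched as CACGTG. The GC box, which Sp1 family factors are known to bind, was searched as GGGCGG. The CCAAT box was searched by its own letters, and the TATA box, known from many tissue-specific promoters, as TATAAA. Baz1b lies at chr5:135187073-135187322 (plus strand), Fzd9 at chr5:135251048-135251297 (minus) and Gtf2ird1 at chr5:134456717-134456966 (minus).
Baz1b: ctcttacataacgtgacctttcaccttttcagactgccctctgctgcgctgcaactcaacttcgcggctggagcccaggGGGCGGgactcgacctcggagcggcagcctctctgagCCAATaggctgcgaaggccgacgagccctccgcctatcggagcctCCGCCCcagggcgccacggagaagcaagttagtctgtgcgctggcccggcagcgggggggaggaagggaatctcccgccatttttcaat
Fzd9: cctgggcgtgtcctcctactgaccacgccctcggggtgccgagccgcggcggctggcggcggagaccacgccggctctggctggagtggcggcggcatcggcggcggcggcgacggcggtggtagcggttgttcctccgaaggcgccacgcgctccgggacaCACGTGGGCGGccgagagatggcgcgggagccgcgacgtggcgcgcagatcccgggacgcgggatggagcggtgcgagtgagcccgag
Gtf2ird1: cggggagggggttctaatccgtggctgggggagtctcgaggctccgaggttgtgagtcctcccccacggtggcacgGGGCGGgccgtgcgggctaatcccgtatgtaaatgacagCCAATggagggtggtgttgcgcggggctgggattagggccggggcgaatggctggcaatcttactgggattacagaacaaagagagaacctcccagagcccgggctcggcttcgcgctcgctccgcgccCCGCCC
In the Fzd9 promoter the E-box and the GC box overlap. It holds 42 CpG dinucleotides and 76.4% G or C, against 20 and 63.6% for Baz1b and 22 and 66.0% for Gtf2ird1. The median over 32851 mouse promoters of this length was 6 CpG and 52.4%. A GC box was found in 9 of the 11 promoters of the neighbours and in 32.7% of all promoters. The E-box was in 4 of 11 and in 6.0% of all, the CCAAT box in 4 of 11 and in 33.8%, and the TATA box in 0 of 11 and in 12.4%. These are matches of letters and not sites of binding.

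In WT mESCs the 10 genes were not alike in level. Per kilobase of gene width, Eif4h, whose product stimulates the helicase of translation initiation, was highest at 101.5 ± 13.02 CPM per kb (SD, n = 11 libraries). Gtf2i was at 35.3 ± 6.25 and Rfc2, a subunit of the clamp loader of DNA replication, at 17.9 ± 2.13 CPM per kb. Bcl7b followed at 10.8 ± 2.33, Tbl2 at 8.17 ± 0.56, Gtf2ird1 at 7.79 ± 0.55, Limk1 at 4.66 ± 0.96 and Clip2 at 2.39 ± 0.52 CPM per kb. Fzd9 at 1.34 ± 0.26 and Mlxipl at 0.98 ± 0.46 CPM per kb were the lowest. Neighbours in this order kept the same order in every WT library except for Bcl7b and Tbl2, Tbl2 and Gtf2ird1, and Fzd9 and Mlxipl, whose order changed between libraries. Across batches the ranges of Rfc2 and Bcl7b and of Clip2 and Fzd9 also met. Baz1b stood at 23.0 ± 2.47 CPM per kb.

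**Figure D1:**
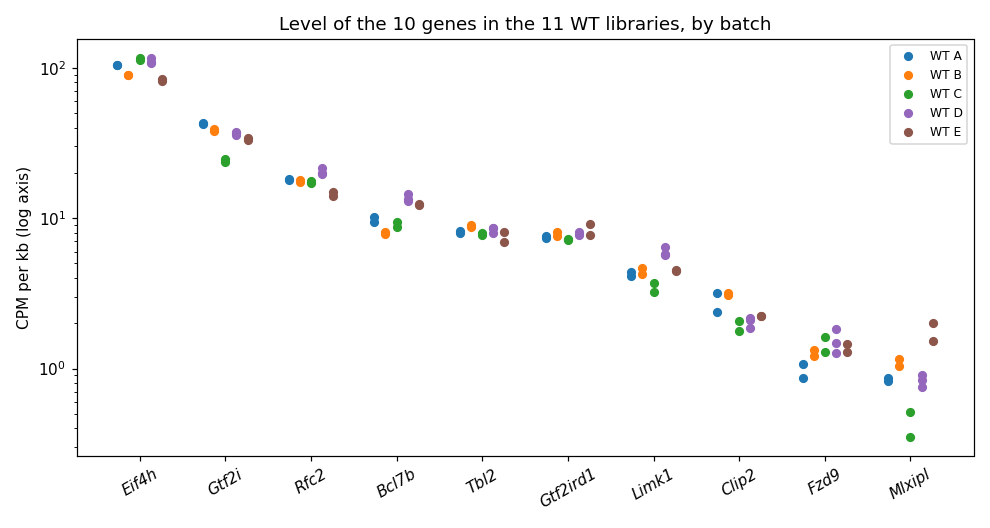
Level of each gene in CPM per kilobase of gene width (log axis) in the 11 WT libraries, 1 point per library and 1 colour per batch. Eif4h sits highest, at 81.6 to 116 CPM per kb, and Mlxipl spreads most between batches, from 0.35 to 1.999.

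The WT libraries of different batches differed by amounts as large as many of the changes given further on. Mlxipl differed most, with a batch mean of 2.40 CPM in batch C and 9.77 CPM in batch E, a 4.07-fold range. For Gtf2i the batch means ran from 171 CPM (batch C) to 301 CPM (batch A), a 1.76-fold range. Limk1 (1.73-fold), Bcl7b (1.71-fold), Clip2 (1.64-fold), Fzd9 (1.57-fold), Rfc2 (1.41-fold) and Eif4h (1.39-fold) came between, and Tbl2 and Gtf2ird1 were the steadiest at 1.18-fold each. Each line is therefore set against the WT of its own batch.

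**Figure D2:**
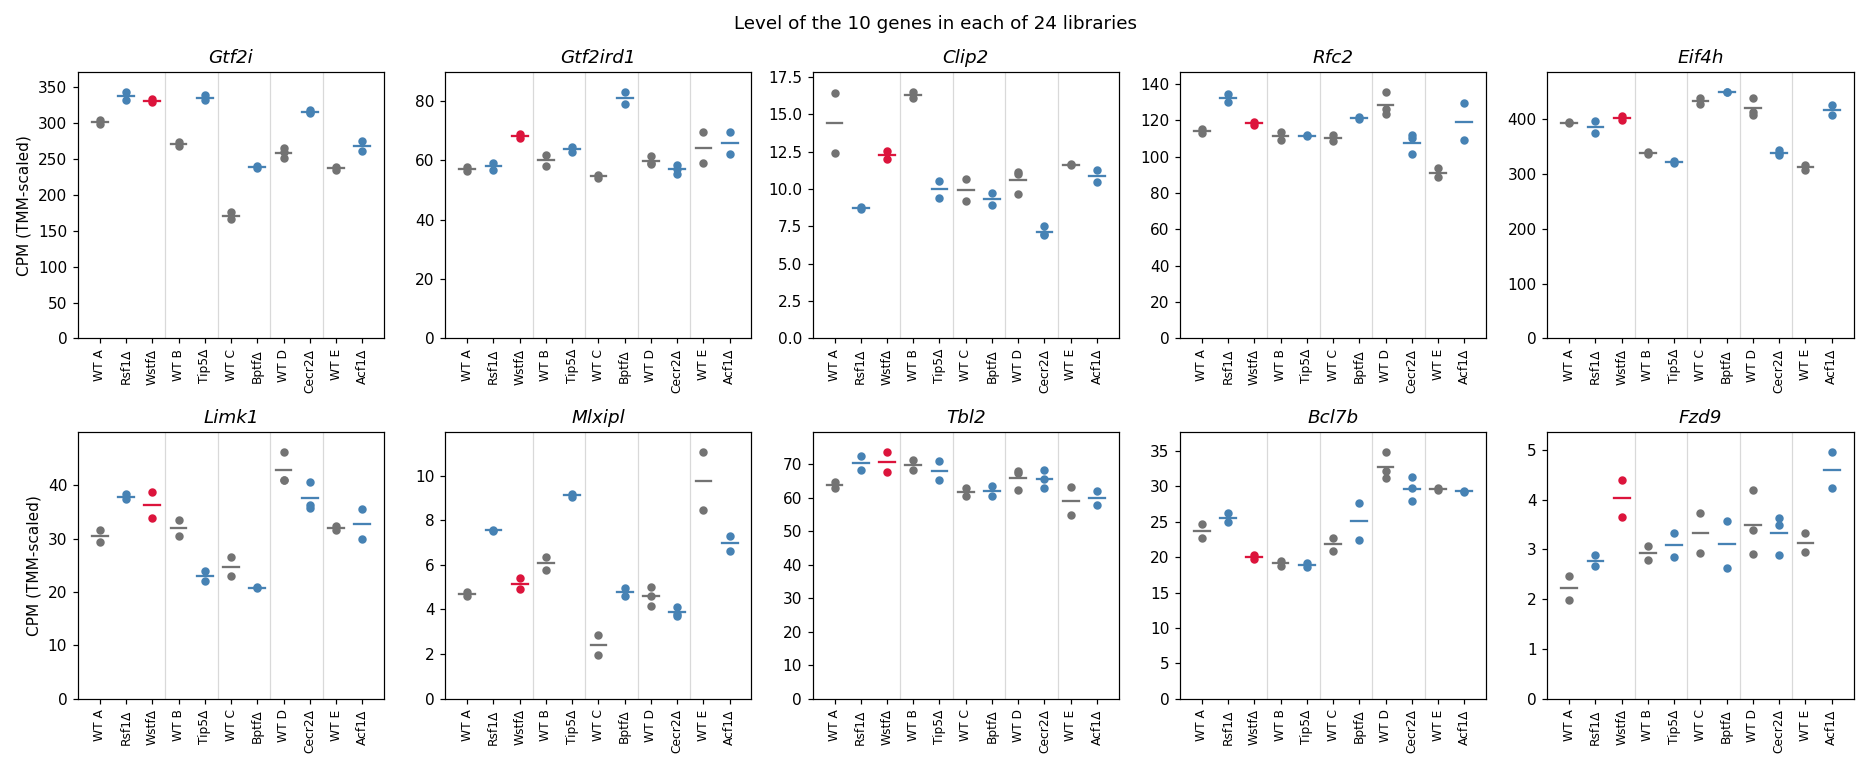
CPM of each of the 10 genes in every library, with 1 point per library, a bar at the group mean, WT in grey, WstfΔ in red and the other lines in blue, and grey lines between batches. Fzd9 is at 3.66 and 4.41 CPM in WstfΔ, above both WT libraries of batch A and on either side of the highest WT library, in batch D, at 4.20.

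The targeted gene was checked first. In WT of batch A, Baz1b was at 243 and 269 CPM, against 46.1 and 50.8 CPM in WstfΔ, and the groups lay far apart. Baz1b mRNA fell by 2.40 on the log2 scale (SE 0.087, edgeR adjusted p = 7.05e-18), a 5.28-fold decrease. In the 5 other lines it was not called, with log2(FC) between -0.18 (Acf1Δ) and 0.08 (Tip5Δ).

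Of the neighbours of the deleted gene, most were not called in WstfΔ. A gene is called, and named as risen or fallen, where the adjusted p was under 0.01. Of the 10 neighbours 2 rose, Fzd9 and Gtf2ird1, where 16.4% of all genes tested rose. None fell by edgeR, where 18.3% of all genes tested fell. At an unadjusted p under 0.05, 4 were higher and 1 was lower, and DESeq2 also called 2 higher and 0 lower. Shares of all genes were taken only by edgeR at an adjusted p under 0.01, here and further on. Counts at other thresholds or by DESeq2 therefore stand without a background and cannot be read against one. The median log2(FC) of the 10 was 0.14 against -0.03 over all genes, and their median absolute log2(FC) was 0.19 against 0.31. None passed the study's rule for DEGs (log2(FC) over 1 in size as well), which 10.4% of all genes passed in WstfΔ. DESeq2 gave 0 by that rule too. In each line the study itself reported fewer DEGs than passed the rule in the fit made here, so the shares given are not the study's.

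Fzd9 encodes a Frizzled receptor for Wnt ligands. It was at 2.47 and 1.98 CPM in WT of batch A and at 4.41 and 3.66 CPM in WstfΔ, which are 62 and 46 counts against 61 and 50 counts in libraries of lower depth. Both WstfΔ libraries lay above both WT libraries, but all 11 WT libraries spanned 1.98 to 4.20 CPM and the WT of batch A was the lowest batch. The log2(FC) was 0.85 (SE 0.23, edgeR adjusted p = 0.00327), a 1.80-fold increase. Without WT A replicate 2 the adjusted p was 0.0416 (log2(FC) 0.70), and without WstfΔ replicate 1 it was 0.0617 (log2(FC) 0.71). Without the batch term the call was also lost, with a log2(FC) of 0.39 (edgeR adjusted p = 0.189).

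Gtf2ird1 encodes a transcription factor of the TFII-I family. It was at 57.8 and 56.4 CPM in WT of batch A and at 67.4 and 68.9 CPM in WstfΔ, so that both WstfΔ libraries were higher. The log2(FC) was 0.26 (SE 0.074, edgeR adjusted p = 0.00618), a 1.19-fold increase. It was no longer called when any of the 4 libraries of this comparison was left out, with edgeR adjusted p from 0.0233 (without WT A replicate 1) and 0.0257 (without WstfΔ replicate 1) to 0.0456 (without WT A replicate 2) and 0.0489 (without WstfΔ replicate 2). With a replicate block (0.0191) or without the batch term (0.0645) it was not called either.

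Of the 3 genes just before Baz1b, none was called by edgeR in WstfΔ. Bcl7b, a subunit of SWI/SNF remodelers and the closest gene upstream, was at 24.7 and 22.7 CPM in WT of batch A and at 19.8 and 20.3 CPM in WstfΔ. Both WstfΔ libraries were lower, with a log2(FC) of -0.24 (approximate 95% interval, without adjustment for the number of genes, -0.43 to -0.05, edgeR adjusted p = 0.0404). Tbl2, which encodes a WD-repeat protein, was at 64.5 and 62.8 CPM in WT and at 73.6 and 67.8 CPM in WstfΔ, a log2(FC) of 0.15 (interval 0.0032 to 0.30, edgeR adjusted p = 0.105). The unadjusted edgeR p of Tbl2 was 0.0558, so this interval, which only just stays positive, is slightly too narrow. Mlxipl, which encodes the glucose-responsive transcription factor ChREBP, was at 4.59 and 4.78 CPM in WT and at 5.42 and 4.90 CPM in WstfΔ. Its log2(FC) was 0.14 (interval -0.20 to 0.48, edgeR adjusted p = 0.53), so that its interval is the widest of these 3.

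The 5 remaining genes lie farther away and were not called in WstfΔ. Gtf2i was at 298 and 304 CPM in WT and at 329 and 333 CPM in WstfΔ (log2(FC) 0.14, SE 0.051, edgeR adjusted p = 0.0306), and it was called higher with the libraries of that line and its WT only (edgeR adjusted p = 0.00356). Limk1, the kinase of cofilin, was at 31.6 and 29.3 CPM in WT and at 33.8 and 38.8 CPM in WstfΔ (log2(FC) 0.25, SE 0.098, edgeR adjusted p = 0.0372). Clip2, a linker protein of microtubule ends, was at 16.4 and 12.4 CPM in WT and at 12.6 and 12 CPM in WstfΔ, and the groups overlapped (log2(FC) -0.23, SE 0.12, edgeR adjusted p = 0.129). Rfc2 and Eif4h were the closest to WT, with log2(FC) of 0.05 (interval -0.09 to 0.19) and 0.03 (interval -0.07 to 0.13).

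**Figure D3:**
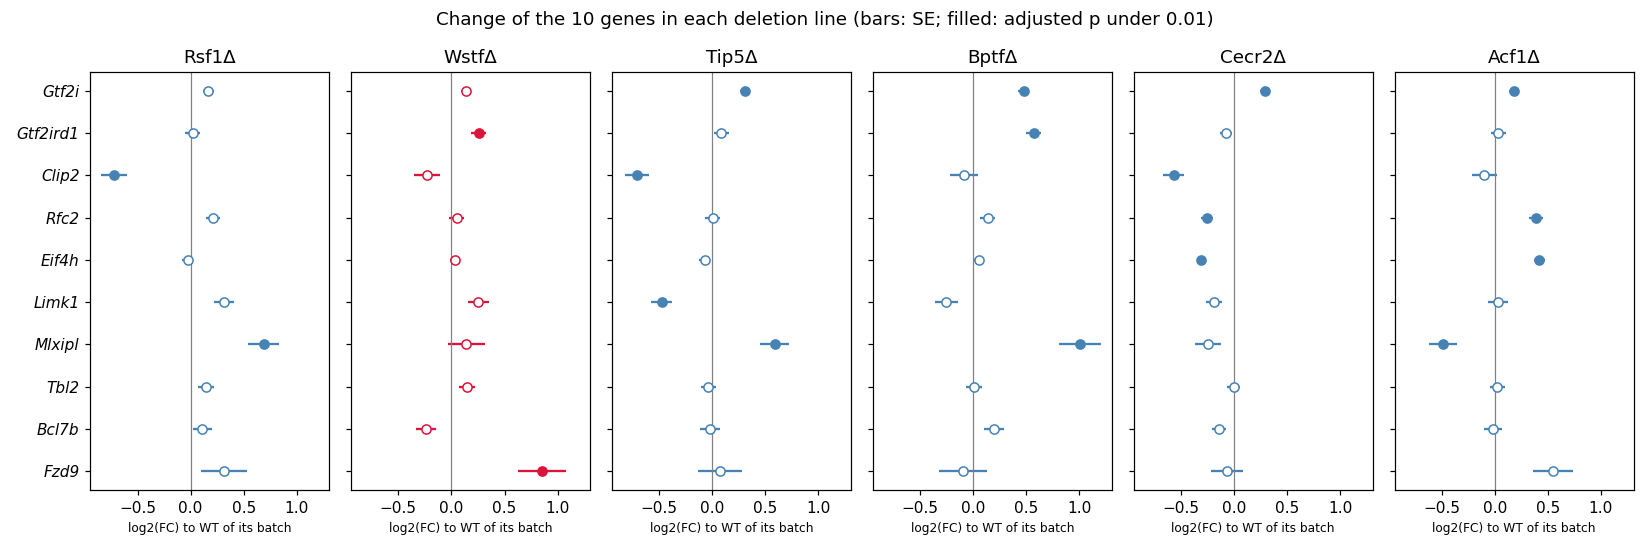
log2(FC) of each gene in each of the 6 lines against the WT of its batch, with SE as bars, genes in chromosomal order from Gtf2i at the top to Fzd9 at the bottom, and filled points where the adjusted p was under 0.01. WstfΔ has 2 filled points, Gtf2ird1 and Fzd9, whereas Tip5Δ, Cecr2Δ and Acf1Δ have 4 each.

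Across all 6 lines, 19 of 60 comparisons of a neighbour with WT were called, 12 higher and 7 lower, and 59 of 60 stayed within 2-fold. Without the batch term 17 of the 19 calls were lost and 2 were kept, Gtf2ird1 in BptfΔ and Clip2 in Cecr2Δ. With only the libraries of each line and its WT, 3 of the 19 were lost (Gtf2i, Mlxipl and Rfc2 in Acf1Δ) and 5 others were gained (Gtf2i and Limk1 in WstfΔ, Limk1 and Rfc2 in Rsf1Δ and Limk1 in BptfΔ). In Rsf1Δ 1 gene rose and 1 fell (all genes: 7.45% rose, 13.1% fell). In Tip5Δ 2 rose and 2 fell (2.84% and 6.23%). In BptfΔ 3 rose and 0 fell by edgeR and by DESeq2 (21.4% and 20.2%), with 4 higher and 1 lower at an unadjusted p under 0.05. In Cecr2Δ 1 rose and 3 fell (9.52% and 8.83%), and in Acf1Δ 3 rose and 1 fell (15.1% and 16.7%). The DEG rule was passed by 1 gene by edgeR, Mlxipl in BptfΔ, where 13.8% of all genes passed it. DESeq2 gave 0 there, with Mlxipl just under the fold minimum at a log2(FC) of 0.997. No neighbour passed it by edgeR or DESeq2 in Rsf1Δ, Tip5Δ, Cecr2Δ or Acf1Δ, where 5.91%, 2.72%, 3.11% and 4.45% of all genes did, and at an unadjusted p under 0.05 with no fold minimum 5, 4, 6 and 5 neighbours differed.

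Of the transcription factors, Gtf2i had a positive log2(FC) in all 6 lines and rose in 4. In Tip5Δ it was at 332 and 339 CPM against 274 and 268 CPM in WT (log2(FC) 0.31, SE 0.051, edgeR adjusted p = 5.81e-05). In BptfΔ it was at 240.1 and 237 CPM against 167 and 176 CPM (log2(FC) 0.48, SE 0.052, edgeR adjusted p = 1.42e-08), and the BptfΔ libraries remained below every WT library of batches A, B and D. In Cecr2Δ it was at 315, 315 and 318 CPM against 266, 251 and 259 CPM (log2(FC) 0.29, edgeR adjusted p = 4.78e-06). The smallest of the 4 increases was that in Acf1Δ, at 275 and 262 CPM against 234 and 239.5 CPM (log2(FC) 0.18, edgeR adjusted p = 0.0054), which was not called without WT E replicate 1 (adjusted p = 0.0428), WT E replicate 2 (0.0163) or Acf1Δ replicate 1 (0.0425). In all it lost the call in 7 of 13 alternatives, also with only its own libraries (0.187), with a replicate block (0.0196), with no filter on low counts (0.01) and without the batch term (0.714). In Rsf1Δ, with 333 and 344 CPM, Gtf2i had a log2(FC) of 0.17 (edgeR adjusted p = 0.013), and it was called higher with DESeq2 (adjusted p = 0.00134), with the CPM filter (0.00735) and without batch C (0.00289). Rsf1Δ and WstfΔ share their WT libraries, so their values for a gene are not independent.

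Gtf2ird1 rose in BptfΔ as well as in WstfΔ, at 78.9 and 83.0 CPM against 55.0 and 54.1 CPM in WT (log2(FC) 0.57, SE 0.074, edgeR adjusted p = 3.17e-07). These 2 BptfΔ libraries were the highest of all 24. In the 4 other lines its log2(FC) lay between -0.07 and 0.09.

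Mlxipl rose in 3 lines and fell in 1. It was at 4.97 and 4.62 CPM in BptfΔ against 1.94 and 2.86 CPM in WT, which are 83 and 80 counts against 37 and 49 (log2(FC) 1.01, SE 0.20, edgeR adjusted p = 0.000104). In Rsf1Δ it was at 7.52 and 7.57 CPM against 4.59 and 4.78 CPM (log2(FC) 0.69, SE 0.15, edgeR adjusted p = 0.000697). In Tip5Δ it was at 9.19 and 9.07 CPM against 5.79 and 6.37 CPM (log2(FC) 0.59, SE 0.14, edgeR adjusted p = 0.00359). The groups did not overlap in any of these 3 lines, and yet the BptfΔ libraries were at the level of WT in batches A and D. In Acf1Δ Mlxipl was at 6.64 and 7.30 CPM against 8.47 and 11.1 CPM (log2(FC) -0.49, SE 0.13, edgeR adjusted p = 0.0041). Single libraries decided several of these calls. Without WT E replicate 2, the highest of all libraries, the log2(FC) in Acf1Δ was -0.29 (adjusted p = 0.134), and it was not called without Acf1Δ replicate 1 (0.0399) or replicate 2 (0.0111) or with only its own libraries (0.0413) either. In Tip5Δ the call was lost without any 1 of its 4 libraries (WT B replicate 1, adjusted p = 0.0601, WT B replicate 2, 0.0165, Tip5Δ replicate 1, 0.0334, and Tip5Δ replicate 2, 0.0288), and in Rsf1Δ without WT A replicate 1 (0.0122).

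Of the genes for the cytoskeleton, Clip2 had a negative log2(FC) in all 6 lines and fell in 3. It was at 8.68 and 8.79 CPM in Rsf1Δ against 16.4 and 12.4 CPM in WT, and it fell by 0.72 on the log2 scale (SE 0.12, edgeR adjusted p = 2.79e-05). In Tip5Δ it was at 9.37 and 10.6 CPM against 16.5 and 16.1 CPM (log2(FC) -0.71, SE 0.12, edgeR adjusted p = 5.65e-05). In Cecr2Δ it was at 7.004, 7.50 and 6.95 CPM against 11.2, 9.66 and 10.98 CPM (log2(FC) -0.57, SE 0.097, edgeR adjusted p = 5.56e-05). The groups did not overlap in these 3 lines. The summed primitive endoderm markers were lower there as well, and also in WstfΔ and BptfΔ, where Clip2 was not called. The summed fibroblast markers were lower in Rsf1Δ (9.15 to 10.1 CPM against 18.2 to 18.9 in WT) and Tip5Δ (17.5 to 22.2 against 31.5 to 31.7). They were at 15.6 to 15.8 CPM in Cecr2Δ against 16.4 to 18.3, and were also lower in BptfΔ and Acf1Δ, where Clip2 was not called. The part of either marker set in the result was not tested. In BptfΔ (log2(FC) -0.08) and Acf1Δ (-0.10) Clip2 was close to WT.

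Limk1 was called in 1 of the 6 comparisons with WT. It fell in Tip5Δ, at 22.1 and 23.96 CPM against 30.6 and 33.6 CPM (log2(FC) -0.48, SE 0.096, edgeR adjusted p = 0.000743). The call was lost without WT B replicate 2 (adjusted p = 0.0259) or Tip5Δ replicate 1 (0.0273). Its log2(FC) elsewhere lay between -0.25 (BptfΔ, edgeR adjusted p = 0.0475) and 0.31 (Rsf1Δ, edgeR adjusted p = 0.0117). With other settings further lines passed the threshold. In Rsf1Δ Limk1 was called higher in 5 alternatives, with DESeq2 (adjusted p = 0.00815), no filter on low counts (0.00297), the CPM filter (0.00966), its own libraries only (0.00149) and without batch C (0.0042). In WstfΔ it was called higher with the libraries of that line and its WT only (0.27, edgeR adjusted p = 0.00756). In BptfΔ it was called lower in that fit (-0.28, edgeR adjusted p = 0.00639) and without the batch term (-0.68, edgeR adjusted p = 0.00476).

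Rfc2 and Eif4h, of DNA replication and translation, were called in the same pair of lines, each in opposite directions. In Acf1Δ, Rfc2 was at 109 and 129.6 CPM against 88.8 and 93.8 CPM in WT (log2(FC) 0.39, SE 0.069, edgeR adjusted p = 6.13e-05), a call that was lost with only the libraries of that line and its WT (0.41, adjusted p = 0.0102) and without the batch term (0.082, adjusted p = 0.705). In Acf1Δ, Eif4h was at 407 and 426 CPM against 316 and 308 CPM (log2(FC) 0.42, SE 0.051, edgeR adjusted p = 3.76e-07). In both cases the Acf1Δ libraries lay above the WT libraries of batch E, which were the lowest of the WT batches. In Cecr2Δ, Rfc2 was at 110.2, 101 and 112 CPM against 136, 124 and 126 CPM (log2(FC) -0.26, SE 0.055, edgeR adjusted p = 0.000888), a call that was lost without Cecr2Δ replicate 2 (adjusted p = 0.0123) or without the batch term (0.678). Eif4h was at 334, 337.5 and 345 CPM in Cecr2Δ against 438, 413 and 408 CPM (log2(FC) -0.31, SE 0.042, edgeR adjusted p = 1.97e-06).

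Tbl2 and Bcl7b, which lie closest upstream of Baz1b, were called in 0 of 6 lines by edgeR. Their log2(FC) lay between -0.04 and 0.15 for Tbl2 and between -0.24 and 0.20 for Bcl7b. Without BptfΔ replicate 1, Bcl7b was called higher in BptfΔ (0.34, edgeR adjusted p = 0.00974), and without the batch term it was at -0.060. Fzd9, the closest downstream, was called in 1 of 6 lines, WstfΔ. In Acf1Δ it was at 4.96 and 4.23 CPM against 2.95 and 3.33 CPM in WT, with a log2(FC) of 0.55 (SE 0.19, edgeR adjusted p = 0.0196), and it was called there with no filter on low counts (0.57, edgeR adjusted p = 0.00946). In the 4 other lines its log2(FC) lay between -0.09 and 0.31.

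Whether WstfΔ differed from the other lines was tested directly. Against Rsf1Δ of the same batch, 1 neighbour was higher and 2 were lower in WstfΔ, where 17.5% and 15.8% of all genes were. Clip2 was at 12.6 and 12 CPM in WstfΔ and at 8.68 and 8.79 CPM in Rsf1Δ (log2 difference 0.49, SE 0.13, edgeR adjusted p = 0.00316). Mlxipl was at 5.42 and 4.90 CPM against 7.52 and 7.57 CPM (log2 difference -0.55, SE 0.16, edgeR adjusted p = 0.00709). Bcl7b was at 19.8 and 20.3 CPM against 26.2 and 25 CPM (log2 difference -0.35, SE 0.095, edgeR adjusted p = 0.00356). None of these 3 calls held by edgeR when any 1 of the 4 libraries was left out or without the batch term (adjusted p = 0.189, 0.497 and 0.356). That of Mlxipl was also lost with DESeq2 (adjusted p = 0.0123), with a replicate block (0.0108) and with library size scaling only (0.01). The differences for Fzd9 (0.54, edgeR adjusted p = 0.0496) and Gtf2ird1 (0.24, edgeR adjusted p = 0.0109) were not called. That of Gtf2ird1 was called with library size scaling only (adjusted p = 0.00897) and with the libraries of this batch only (0.00123).

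Against the mean change of the 5 other lines, 1 neighbour was called higher in WstfΔ and 0 lower by edgeR, where 14.2% and 13.2% of all genes were. At an unadjusted p under 0.05, 2 were higher and 2 were lower, and DESeq2 also called 1 higher and 0 lower. The gene called was Limk1 (difference in log2(FC) 0.37, SE 0.098, edgeR adjusted p = 0.00382), which was not called in WstfΔ against WT and was lost without WT A replicate 2 (adjusted p = 0.0277), without WstfΔ replicate 2 (0.106) or without the batch term (0.271). Limk1 was not set apart from Rsf1Δ of the same batch, with log2(FC) of 0.31 in Rsf1Δ and 0.25 in WstfΔ. The direct difference was -0.06 (edgeR adjusted p = 0.645). In the rest Limk1 was at -0.48 (Tip5Δ), -0.25 (BptfΔ), -0.19 (Cecr2Δ) and 0.03 (Acf1Δ). The difference for Fzd9 was 0.70 (SE 0.22, edgeR adjusted p = 0.015) and that for Gtf2ird1 0.13 (edgeR adjusted p = 0.178). Neither was called in this fit, and with no filter on low counts that of Fzd9 was (0.69, edgeR adjusted p = 0.01 after rounding).

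Of 16 other genes of the region, 13 were tested, and Ncf1, Tmem270 and Trim50 were not, with at most 12, 2 and 6 counts in any library. In WstfΔ 2 of the 13 rose and 2 fell, where 16.4% and 18.3% of all genes did, and 3 of the 13 passed the DEG rule against 10.4% of all genes. Vps37d, which encodes an ESCRT-I subunit and lies between Limk1 and Mlxipl, was at 2.24 and 2.41 CPM against 0.96 and 0.47 CPM in WT (log2(FC) 1.68, SE 0.38, edgeR adjusted p = 0.000626). Dnajc30, which overlaps Bud23, was at 11.6 and 11.4 CPM against 6.62 and 6.93 CPM (log2(FC) 0.76, SE 0.13, edgeR adjusted p = 3.61e-05). Fkbp6, the first tested gene of the list beyond Fzd9, was at 0.795 and 0.585 CPM against 2.19 and 1.77 CPM (log2(FC) -1.52, SE 0.31, edgeR adjusted p = 0.000225). All of these differences are larger than the spread within either group, but WT batches also differed. Dnajc30 was at 12.8 and 13.8 CPM in WT of batch E, above both WstfΔ libraries. Vps37d spanned 0.41 to 1.92 CPM over the WT libraries, below both WstfΔ libraries, and had 31 and 33 counts in WstfΔ against 24 and 11. For Fkbp6 every WT library lay above both WstfΔ libraries.

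Eln, the elastin gene, had 2 and 1 counts in WstfΔ against 25 and 20 in WT of batch A (edgeR adjusted p = 0.00333). The ratio of 3 to 45 counts, scaled for depth, was 0.12 with an exact interval of 0.023 to 0.36 that covers counting error only. Eln is a gene of matrix-producing cells. The 4 fibroblast markers summed to 18.2 to 18.9 CPM in WT of batch A and 17.3 to 19.8 CPM in WstfΔ, but their single means moved apart. The collagen genes Col1a1, Col1a2 and Col3a1 were at 8.002, 1.97 and 1.16 CPM in WT and at 2.83, 0.401 and 0.0727 CPM in WstfΔ, and Thy1 was at 7.44 CPM in WT and 15.2 CPM in WstfΔ. Their part in the Eln result was not tested.

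Vps37d, Dnajc30, Fkbp6 and Eln were also called in the same direction in BptfΔ against its own WT. There the log2(FC) was 1.60 for Vps37d (SE 0.37, edgeR adjusted p = 0.000662) and 0.47 for Dnajc30 (SE 0.14, edgeR adjusted p = 0.00689). Fkbp6 had 0 counts in both BptfΔ libraries against 57 and 46 in WT of batch C (edgeR adjusted p = 6.99e-11), and Eln had 0 and 2 counts against 11 and 16 (edgeR adjusted p = 0.00231). Eln also fell in Cecr2Δ (log2(FC) -1.95, SE 0.39, edgeR adjusted p = 0.000371) and Fkbp6 in Acf1Δ (-0.80, SE 0.20, edgeR adjusted p = 0.00242), while Fkbp6 rose in Rsf1Δ (1.28, SE 0.19, edgeR adjusted p = 5.24e-06) and in Cecr2Δ (0.89, SE 0.12, edgeR adjusted p = 3.65e-06). Against the mean of the 5 other lines, 3 of the 13 region genes were higher and 1 was lower in WstfΔ, where 14.2% and 13.2% of all genes were. The region genes called were Vps37d (difference in log2(FC) 1.62, SE 0.37, edgeR adjusted p = 0.000927), Dnajc30 (0.55, SE 0.13, edgeR adjusted p = 0.00154), Mettl27 (0.42, SE 0.12, edgeR adjusted p = 0.00594) and, lower, Stx1a (-0.55, SE 0.16, edgeR adjusted p = 0.00658). For Eln and Fkbp6 that difference is not given, since the mean takes in fitted values of BptfΔ libraries at 0 counts. Against Rsf1Δ of the same batch, 3 of the 13 were higher in WstfΔ (Vps37d, Mettl27 and Cldn4) and 6 were lower (Eln, Fkbp6, Stx1a, Nsun5, Abhd11 and Bud23), where 17.5% and 15.8% of all genes were.

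The 9 region genes not called in WstfΔ against WT were Gtf2ird2 (log2(FC) 0.24), Lat2 (0.26), Mettl27 (0.12), Cldn4 (-0.20), Cldn3 (0.14), Abhd11 (-0.33), Stx1a (-0.31), Bud23 (-0.15) and Nsun5 (-0.15). Their edgeR adjusted p ran from 0.0115 for Abhd11 to 0.784 for Cldn3. Gtf2ird2 resembles its neighbour Gtf2i in sequence, Nsun5 overlaps Pom121, Cldn3 overlaps Wbscr25 and Abhd11 overlaps Abhd11os. How reads shared by such pairs were counted is not given in the sources used here, so the values of these genes and of Dnajc30 are uncertain.

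Distance from Baz1b was then examined in WstfΔ over all tested genes of the surroundings. Of 44 genes that start within 1 Mb, 8 rose and 4 fell, which is 27.3% against 34.7% over all genes tested. By bins, 7 of 22 genes (31.8%) were called from 0 to 0.5 Mb, 5 of 22 (22.7%) from 0.5 to 1 Mb, 6 of 19 (31.6%) from 1 to 2 Mb and 26 of 69 (37.7%) from 2 to 5 Mb. The median log2(FC) of these bins was 0.01, 0.05, -0.12 and 0.04. The 10 neighbours make up 5 of the 22 genes in each of the first 2 bins. Beyond Eln, Vps37d, Fkbp6, Fzd9 and Dnajc30, the largest called change within 1 Mb was that of Rasa4, at 0.90 Mb (log2(FC) 0.74, SE 0.16, edgeR adjusted p = 0.000303).

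**Figure D4:**
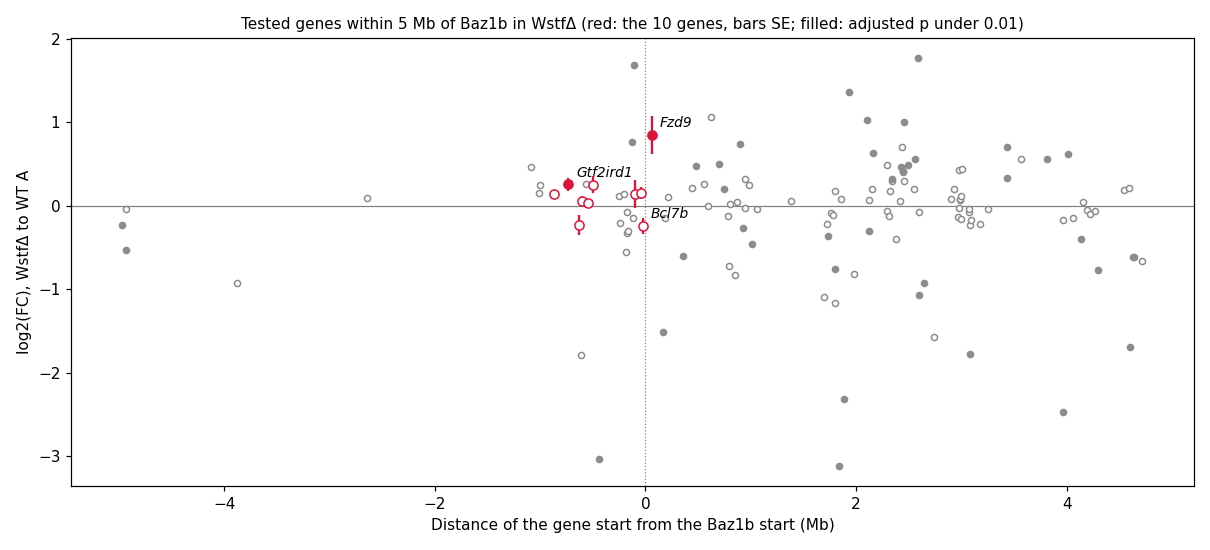
log2(FC) in WstfΔ against WT of batch A for each tested gene that starts within 5 Mb of the Baz1b start, by distance in Mb, with the 10 neighbours in red (bars, SE), other genes in grey and filled points where the adjusted p was under 0.01. Baz1b itself (log2(FC) -2.40) is not drawn, and filled points are no denser at the centre (27.3% within 1 Mb) than from 2 to 5 Mb (37.7%).

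Relatives and partners of the 10 genes elsewhere in the genome were examined from a list of 38, all tested. In WstfΔ 6 rose and 7 fell, where 16.4% and 18.3% of all genes did, which is also the background of the family counts that follow. Their median log2(FC) was -0.11, against -0.03 over all genes. Of 9 other Frizzled receptors 3 rose and 2 fell. Fzd5 rose (log2(FC) 0.96, SE 0.078, edgeR adjusted p = 1.12e-10), as did Fzd10 (0.78, SE 0.10, edgeR adjusted p = 4.61e-07) and Fzd3 (0.43, SE 0.10, edgeR adjusted p = 0.00137). Fzd1 (-1.66, SE 0.39, edgeR adjusted p = 0.00109) and Fzd2 (-0.81, SE 0.16, edgeR adjusted p = 0.000192) fell.

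Of 8 genes of the LIM kinase and cofilin pathway 1 rose and 4 fell in WstfΔ. The substrates of Limk1 fell, Cfl1 by 0.31 (edgeR adjusted p = 0.00181) and Cfl2 by 0.51 (edgeR adjusted p = 3.44e-05) on the log2 scale, and so did the kinases Limk2 (-0.24, edgeR adjusted p = 0.00439) and Tesk2 (-0.33, edgeR adjusted p = 0.000576). Ssh2, a phosphatase that reactivates cofilin, rose (0.52, edgeR adjusted p = 0.00077). Of 5 partners and targets of ChREBP, Txnip, a classical target, rose (0.66, SE 0.054, edgeR adjusted p = 1.11e-10) and the partner Mlx was at -0.25 (edgeR adjusted p = 0.0126). Of 5 genes of the eIF4A helicase and its cofactors, Eif4b rose (0.51, edgeR adjusted p = 4.87e-09) and Eif4a2 fell (-0.49, edgeR adjusted p = 1.33e-05).

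No member was called by edgeR among the 5 genes of the RFC clamp loader and PCNA, the 3 of the CLIP family, the 2 of the BCL7 family or Gtf2ird2 of the TFII-I family. At an unadjusted p under 0.05, 2 of the first group (Rfc3, log2(FC) -0.22, and Pcna, 0.17) and 1 of the CLIP family (Clip4, 0.30) differed, and 0 of the other 2 groups did.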

How the data were processed

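RNA-seq was measured in 24 libraries. The authors aligned reads to mm10 with QuasR (spliced mode, Rhisat2), counted them per gene of UCSC knownGene and deposited raw counts without normalization, beside a gene width in bases. The labels name bcl2fastq 2.17, HISAT2 and a stranded kit, and the methods another kit. How strand and multiply mapped reads were counted is not given in the sources used here. Symbols and coordinates come from RefSeq GRCm38.p6 (24570 of 24594 gene IDs) and strands from GENCODE on the same build, with 1 gene near Baz1b left out for want of a strand.

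Groups and batches were taken from the labels. With R 4.3.3 and edgeR 4.0.16, low-count genes were removed (filterByExpr, grouped by genotype), and the 15682 that were left were scaled with TMM factors and fitted with the legacy quasi-likelihood model (terms for batch and genotype, all 24 libraries). Benjamini-Hochberg adjustment ran over all genes tested. A call is an adjusted p under 0.01. The standard error is the absolute log2 fold change over the square root of F, and approximate 95% intervals reach 1.96 standard errors either side. They are somewhat narrower than the F test would give. The fit was tried on simulated data, where changes were recovered in sign and, for genes with more counts, in size. Genes with few counts were often not called, which bears on Fzd9 and Mlxipl. The check was narrowed to genes with more counts after a first check on all genes was not met. The simulation gave every gene the same spread and held no batch differences. It therefore cannot show how reliable the calls are in these libraries.

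Named were the 10 genes and Baz1b, every tested gene of the region list, partner genes called in WstfΔ (at most 12 with the largest change over 0.5 in size), and at most 6 genes within 1 Mb. Fzd3, Cfl1, Limk2, Tesk2, Eif4a2, Mlx, Rfc3, Pcna and Clip4 were named outside this rule after their values were seen, and so was Rpph1. The members and lists were chosen with earlier results of these data known. Replicate libraries differed by more than sampling noise in all 15 pairs (chi-square per gene 1.38 to 20.4, genes with at least 20 summed counts). Alternatives were DESeq2 1.42.0, library size only, the newer quasi-likelihood form, other filters, no batch term, a replicate block, each line with its own WT only, other thresholds and leaving out each library. Leaving out batch C was chosen after seeing the data. Intervals of counts cover counting error only.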

Additional observations from a re-analysis of the deposited data

Results flagged for a closer look

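Where the change in WstfΔ was tested against that in other lines, 4 neighbours of Baz1b differed between lines by edgeR (adjusted p under 0.01). Of all genes, 17.5% were called higher and 15.8% lower against Rsf1Δ, and 14.2% and 13.2% against the mean of the 5 other lines. Between WstfΔ and Rsf1Δ of the same batch, the log2 difference was 0.49 for Clip2 (SE 0.13, adjusted p = 0.00316), -0.55 for Mlxipl (SE 0.16, adjusted p = 0.00709) and -0.35 for Bcl7b (SE 0.095, adjusted p = 0.00356). Between WstfΔ and the mean of the 5 other lines, the difference in log2(FC) was 0.37 for Limk1 (SE 0.098, adjusted p = 0.00382). Against WT, however, Limk1 was at a log2(FC) of 0.25 in WstfΔ and 0.31 in Rsf1Δ of the same batch. In the rest it lay between -0.48 (Tip5Δ) and 0.03 (Acf1Δ). Over all alternatives the differences kept their direction, with ranges of 0.46 to 0.52 for Clip2, -0.62 to -0.48 for Mlxipl, -0.39 to -0.32 for Bcl7b and 0.27 to 0.46 for Limk1. The call was lost in 5 of 13 alternatives for Clip2, 8 of 13 for Mlxipl, 5 of 13 for Bcl7b and 3 of 11 for Limk1.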

How the results depend on the processing

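Counts of called neighbours rested on 2 or 3 libraries per group and on the batch term. Of the values of single neighbours under an alternative, 948 stayed on their side of the threshold, 61 lost the call, 18 gained it and 3 with a call in either fit reversed. Of the 948, 59 that were called in neither fit changed sign, 19 of them without the batch term, and the other 40 had an absolute log2(FC) of at most 0.094 as reported. The 3 reversals came without the batch term, Gtf2i in BptfΔ (-0.062), Mlxipl in BptfΔ (-0.18) and Mlxipl in Acf1Δ (0.36), where WT levels of these genes differ between batches. Without that term the called neighbours were 0 in Rsf1Δ, WstfΔ, Tip5Δ and Acf1Δ, in WstfΔ against Rsf1Δ and in WstfΔ against the 5 other lines, and 1 in Cecr2Δ, with 2 region genes, 3 partners and 2 genes within 1 Mb called in WstfΔ. In Rsf1Δ 4 neighbours were called with DESeq2, with the filter of CPM over 1 in 2 libraries, with its own libraries only and without batch C. With its own libraries only, WstfΔ had 4 and Acf1Δ 1, and that fit could not be made for WstfΔ against the 5 other lines, which had 2 with no filter on low counts. At an adjusted p under 0.05 there were 5 in Rsf1Δ, 5 in WstfΔ, 5 in WstfΔ against Rsf1Δ, 4 in WstfΔ against the others and 19 genes within 1 Mb. The share of all genes at that threshold is not given. By the DEG rule there was 1 in BptfΔ and 0 in every other comparison, with 1 partner and 3 genes within 1 Mb. The cause of these shifts was not tested.

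Leaving out 1 library gave 1 to 2 called neighbours in Rsf1Δ (1 without WT A replicate 1), 0 to 1 in WstfΔ (0 without WT A replicate 2 or WstfΔ replicate 1, 1 without either of the others), 2 to 3 in Tip5Δ (2 without WT B replicate 2 or Tip5Δ replicate 1), 3 to 4 in BptfΔ and in Cecr2Δ, and 2 to 3 in Acf1Δ (2 without WT E replicate 2 or Acf1Δ replicate 1). WstfΔ against Rsf1Δ gave 0 without any 1 of its libraries, and against the others 0 to 1 (0 without WT A replicate 2 or WstfΔ replicate 2). In WstfΔ it left 2 to 3 region genes (2 without WstfΔ replicate 2), 8 to 11 partners (8 without WstfΔ replicate 1) and 6 to 9 genes within 1 Mb (7 without WT A replicate 2 or WstfΔ replicate 1, 6 without WstfΔ replicate 2). A lone library is assumed to vary like the other groups. Same-numbered libraries did not deviate together (correlation of deviations -0.067 to 0.045 over 9 distinct pairings), and with a replicate block WstfΔ had 1 called neighbour, Acf1Δ 3 and WstfΔ against Rsf1Δ 2, with Gtf2ird1 in WstfΔ (adjusted p = 0.0191), Gtf2i in Acf1Δ (0.0196) and Mlxipl in WstfΔ against Rsf1Δ (0.0108) no longer called. Baz1b in WstfΔ stayed between -2.47 and -2.33 with any library left out. At 46 to 71 counts, Fzd9 has the least depth of the neighbours in batch A.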
